A study of Mus musculus with 9 samples.

Results

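The angiogenic ligands described here are the secreted factors encoded by Vegfa, Vegfb, Vegfc, Pgf, Angpt1, Angpt2, Apln and Adm, which were chosen by gene symbol as 8 of the 31274 entries in the expression table. Their transcripts were measured by RNA-seq in whole uteri of C57BL/6 mice on pseudopregnancy day (PPD) 4.5, the time at which the uterus would receive an embryo. Females were mated to vasectomized males, so that no embryo contributed RNA. The control group held 4 Wnk1 fl/fl mice, which carry loxP sites around an exon of Wnk1. The other group held 5 Wnk1 d/d mice, which carry the same floxed alleles together with PGR Cre, a recombinase expressed from the progesterone receptor locus. Each library came from 1 mouse. The deletion is therefore limited to cells that express or have expressed PGR, and the study names ovary and pituitary as further sites of recombination, and immune and endothelial cells as uterine cells that retain WNK1. The labels give no Cre-carrying control, so carrying Cre and losing Wnk1 cannot be told apart here.

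Blood vessels of the uterus are remodeled in every cycle and again around implantation, when the stroma below the attaching embryo becomes more permeable and new vessels form. VEGF family ligands act on receptor tyrosine kinases of the endothelium to drive growth, permeability and lymphatic sprouting. The angiopoietins act on TEK, where Angpt1 stabilizes vessels and Angpt2 antagonizes or mimics it depending on context. Apelin signals through the G protein-coupled receptor encoded by Aplnr, and adrenomedullin through the receptor encoded by Calcrl, whose ligand choice is set by the RAMP coreceptors.

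On mouse build mm10 with the GENCODE M21 annotation, the genes lie at chr17:46016993-46032369 (Vegfa, minus strand), chr19:6982473-6987651 (Vegfb, minus), chr8:54077606-54187096 (Vegfc, plus), chr12:85166635-85177790 (Pgf, minus), chr15:42424723-42676977 (Angpt1, minus), chr8:18690263-18741562 (Angpt2, minus), chrX:48025146-48034853 (Apln, minus) and chr7:110627661-110629820 (Adm, plus). All are protein coding. Angpt2 lies within Mcph1, a gene on the opposite strand with which it shares 0 exonic bases. Mcph1 read 3.57 ± 0.206 FPKM in Wnk1 fl/fl (SD, n = 4) and 3.21 ± 0.281 in Wnk1 d/d (SD, n = 5), with an adjusted p of 0.280 in limma. Adm lies within the antisense gene Gm28863, again with 0 shared exonic bases. Angpt1 shares 1682 exonic bases with the antisense gene Gm17473, and since the sources used here do not state that strand was used in counting, reads from this pair cannot be told apart.

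RefSeq promoter sequences on GRCm38.p6 were given for 6 of the 8 ligands, and the 250 bases before the transcription start are shown for 3 of them. Adm and Vegfc are shown because their transcripts were lower in every Wnk1 d/d uterus, and Vegfa because it was the most abundant ligand and its groups overlapped. The windows are chr7:110627407-110627656 on the plus strand for Adm, chr8:54077282-54077531 on the plus strand for Vegfc and chr17:46032378-46032627 on the minus strand for the first Vegfa start, each written 5′ to 3′ along the gene. Capitals mark the GC box, GGGCGG, or its reverse complement CCGCCC.
Adm: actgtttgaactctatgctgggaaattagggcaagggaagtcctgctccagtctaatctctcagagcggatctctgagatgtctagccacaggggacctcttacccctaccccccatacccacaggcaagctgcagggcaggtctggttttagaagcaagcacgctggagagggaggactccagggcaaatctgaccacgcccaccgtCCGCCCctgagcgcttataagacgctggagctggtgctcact
Vegfc: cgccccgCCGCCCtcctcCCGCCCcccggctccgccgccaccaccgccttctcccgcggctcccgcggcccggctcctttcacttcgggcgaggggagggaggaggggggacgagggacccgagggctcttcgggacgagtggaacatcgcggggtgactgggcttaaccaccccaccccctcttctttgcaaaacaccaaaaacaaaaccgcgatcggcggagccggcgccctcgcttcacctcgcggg
Vegfa: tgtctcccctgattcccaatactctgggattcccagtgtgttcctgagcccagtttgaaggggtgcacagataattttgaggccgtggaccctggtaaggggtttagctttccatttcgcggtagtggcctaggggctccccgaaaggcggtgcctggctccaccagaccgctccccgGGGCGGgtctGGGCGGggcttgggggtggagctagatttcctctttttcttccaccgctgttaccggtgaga
The Adm window held 1 GC box, at 42 bases before the start, and 56.8% G and C. The Vegfc window held 2, at 243 and 232 bases, and 71.6% G and C. The Vegfa window also held 2, at 72 and 62 bases. On either strand the GC box occurs in 32.7% of all 32851 RefSeq windows of the same length. The hypoxia response core ACGTG (or CACGT) occurs in 16.6% of windows, and among the ligands only in that of the second Vegfa start, at 211 bases. That window, chr17:46025164-46025413, lies within the annotated Vegfa gene rather than before it. The FOXO site GTAAACA (or TGTTTAC) occurs in 3.17% of windows and in none of the 8 ligand windows. These 3 motifs do not overlap one another in letters, were picked after the values were seen, and are given as a description of the sequence alone.

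Expression is given as FPKM, a fragment count scaled by exon length and by the library's mapped fragments, which allows levels of different genes to be compared per length. Of the 31274 entries, 14728 exceeded a mean of 1 FPKM in at least 1 genotype and were tested with limma on log2(FPKM + 1), with Benjamini-Hochberg adjustment over all of them. A gene was called when its adjusted p was under 0.05 and its mean FPKM differed by at least 1.5-fold. Log2 fold changes are Wnk1 d/d over Wnk1 fl/fl on the log2(FPKM + 1) scale, which understates the change of low genes. Wnk1 itself read 31.2 ± 1.62 FPKM in Wnk1 d/d (SD, n = 5) and 45.3 ± 1.62 in controls (SD, n = 4), without overlap and with an adjusted p of 0.00167 by limma. Its 1.45-fold difference lay under the fold criterion, so Wnk1 was not called. The counting was per gene, so that transcripts lacking the floxed exon still count. Whole-uterus libraries of 1 genotype correlated across genes at r = 0.942 to 0.969. Markers of epithelium, stroma and smooth muscle were all present, with summed levels of at least 706, 1821 and 2968 FPKM in every library. Wnk1 fl/fl replicate 4 stood apart in liver transcripts, which summed to 195 FPKM against 31.1 to 50.2 in the other libraries, and read 77.7 FPKM for Alb. In Wnk1 d/d replicate 4, 1 entry held 70.3% of the summed FPKM, although the median of log2(FPKM + 1) over tested genes lay between 3.79 and 3.82 in all 9 libraries.

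The main change among the ligands was a lower level of Angpt2 and Adm in Wnk1 d/d uteri. Of the 7 ligands tested, 2 were called and both were lower, where 5.18% of all tested genes were called lower and 10.3% in either direction. Vegfc was also lower at an adjusted p under 0.05, which makes 3 ligands lower and 0 higher by that criterion, against 11.0% and 11.1% of all genes (22.1% in either direction), but its 1.40-fold difference lay under the fold criterion. The genotypes did not overlap in these same 3 ligands, as was true of 10.6% of all genes in this direction, 9.27% in the other and 19.9% in either. They were also the 3 ligands with an unadjusted exact permutation p under 0.05, which 36.0% of all genes had, 18.1% lower and 18.0% higher. No ligand was called higher. The median log2 fold change of the 7 was -0.43, against 0.0030 over all tested genes. The plot of ligand levels by library shows each mouse.

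**Figure D1:**
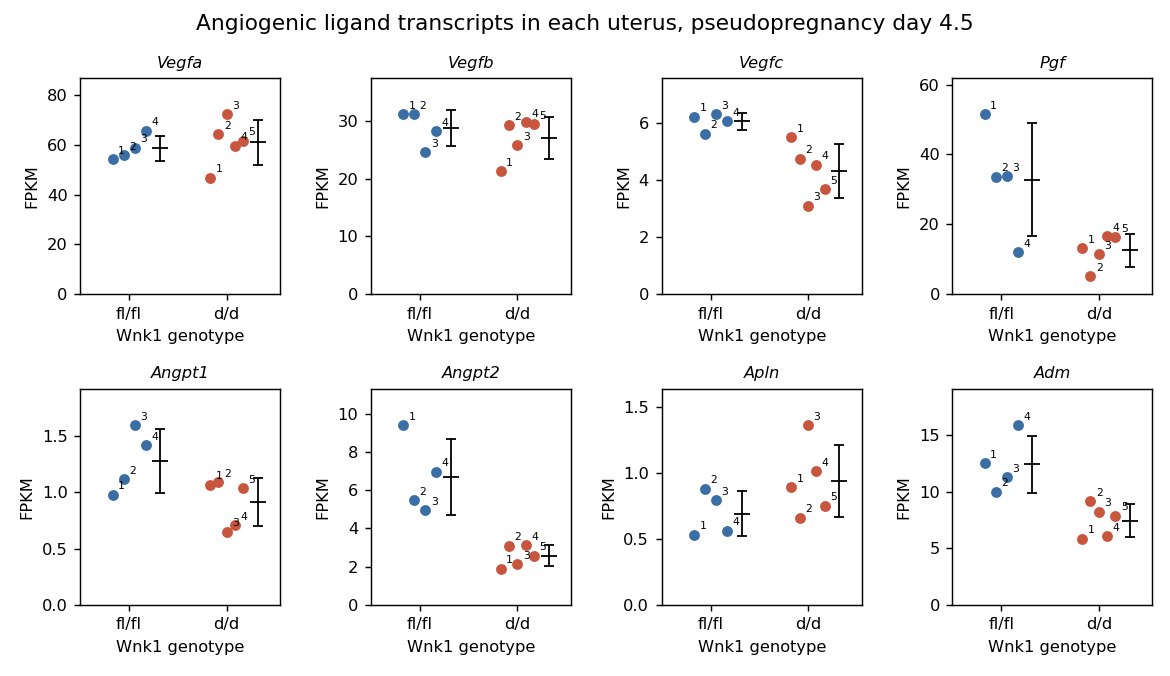
FPKM of each ligand (vertical axes, starting at 0) in 4 Wnk1 fl/fl and 5 Wnk1 d/d uteri, with points numbered by replicate and bars giving the mean ± SD. Angpt2, Adm and Vegfc do not overlap between genotypes, whereas Vegfa and Vegfb spread over the same range, and Wnk1 fl/fl replicate 4 sits among the Wnk1 d/d values of Pgf at 11.9 FPKM.

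Vegfa, the principal endothelial growth and permeability factor, read 54.2, 56.0, 58.9 and 65.8 FPKM in Wnk1 fl/fl replicates 1 to 4. It read 46.9, 64.4, 72.3, 59.8 and 61.7 FPKM in Wnk1 d/d replicates 1 to 5. Both the lowest and the highest library were Wnk1 d/d, so the control values lay inside the range of the others. The means were 58.7 ± 5.12 (SD, n = 4) and 61.0 ± 9.23 FPKM (SD, n = 5), and the log2 fold change was 0.045 ± 0.12 (SE, limma, adjusted p = 0.802). Its 95% interval corresponds to a ratio of 0.861 to 1.24, so that a difference as large as the one in Adm lay outside it. The sign of this small difference turned to -0.037 under quantile normalization and to -0.018 without Wnk1 d/d replicate 3.

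Vegfb, a ligand of FLT1 linked to vessel survival and lipid handling, behaved likewise. The controls read 31.1, 31.1, 24.5 and 28.2 FPKM, and the Wnk1 d/d libraries 21.3, 29.2, 25.8, 29.8 and 29.4 FPKM. The ranges overlapped and only Wnk1 d/d replicate 1 fell below the controls. The log2 fold change was -0.087 ± 0.11 (SE, limma, adjusted p = 0.598), with an interval corresponding to a ratio of 0.789 to 1.12.

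Vegfc, the ligand of FLT4 that drives lymphatic growth and also acts on KDR once processed, was less abundant. The controls were tightly grouped at 6.23, 5.63, 6.31 and 6.07 FPKM. The Wnk1 d/d libraries read 5.51, 4.76, 3.10, 4.54 and 3.69 FPKM, each below the lowest control. The means of 6.06 ± 0.304 (SD, n = 4) and 4.32 ± 0.941 FPKM (SD, n = 5) gave a log2 fold change of -0.43 ± 0.13 (SE, limma, adjusted p = 0.0415). The adjusted p lay above 0.05 when any Wnk1 fl/fl library or Wnk1 d/d replicate 3, 4 or 5 was left out, reaching 0.0907 without Wnk1 fl/fl replicate 4. Without Wnk1 d/d replicate 1, which held the highest Vegfc of its group, the ratio was 0.664 and the gene met both criteria (limma, adjusted p = 0.0256).

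Pgf, placental growth factor, which binds FLT1 and neuropilins, varied most within the control group. Wnk1 fl/fl replicates 1 to 4 read 51.5, 33.6, 33.8 and 11.9 FPKM. Wnk1 d/d replicates 1 to 5 read 13.1, 5.16, 11.4, 16.7 and 16.4 FPKM. The first 3 controls were all above the highest Wnk1 d/d library and the fourth lay within the Wnk1 d/d range. The means were 32.7 ± 16.2 (SD, n = 4) and 12.5 ± 4.68 FPKM (SD, n = 5), a 2.61-fold difference as wide as that of Angpt2. The log2 fold change of -1.24 ± 0.42 (SE) did not pass the test (limma, adjusted p = 0.0614). Without Wnk1 fl/fl replicate 4, the library with liver transcripts, it was -1.65 and Pgf was called lower (limma, adjusted p = 0.0216). The part of the liver transcripts in this value was not tested.

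The VEGF family as a whole did not separate the genotypes. Vegfa, Vegfb, Vegfc, Pgf and the table's Figf entry (Vegfd) summed to 151 to 205 FPKM in controls and 134 to 168 FPKM in Wnk1 d/d. Vegfa made up 35.1 ± 7.38% of that sum in controls (SD, n = 4) and 38.6 ± 3.27% in Wnk1 d/d (SD, n = 5). The share of Pgf was 18.6 ± 7.59% and 7.97 ± 2.98%, respectively. The ranges of both shares overlapped. The ratio of Vegfa to Pgf was 1.05, 1.67 and 1.74 in the first 3 controls and 5.52 in replicate 4, against 3.59 to 12.5 in the Wnk1 d/d libraries, as the plot of ratios shows.

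Angpt2, the angiopoietin that is made by endothelium under remodeling, had the smallest adjusted p of any ligand. Its level was 9.40, 5.48, 4.94 and 6.95 FPKM in Wnk1 fl/fl replicates 1 to 4. In Wnk1 d/d replicates 1 to 5 it was 1.89, 3.08, 2.12, 3.11 and 2.57 FPKM. Every Wnk1 d/d value lay below every control, with a gap between 3.11 and 4.94 FPKM. The means of 6.69 ± 1.99 (SD, n = 4) and 2.55 ± 0.551 FPKM (SD, n = 5) differed 2.62-fold, with a log2 fold change of -1.09 ± 0.18 (SE, limma, adjusted p = 0.00550). The exact two-sided permutation test gave p = 0.0079, the smallest it can give, and 1780 genes reached it. Angpt2 was called in each of the 9 fits that left out 1 library, with adjusted p from 0.00483 to 0.0181.

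Angpt1, the stabilizing ligand of TEK, was low in both groups. It read 0.98, 1.12, 1.60 and 1.42 FPKM in controls and 1.07, 1.09, 0.65, 0.71 and 1.04 FPKM in Wnk1 d/d, and the groups overlapped. The log2 fold change of -0.25 ± 0.13 (SE) did not pass the test (limma, adjusted p = 0.171), and the gene entered it only because its control mean exceeded 1 FPKM. The ratio of Angpt2 to Angpt1 averaged 5.62 ± 2.78 in controls (SD, n = 4) and 2.94 ± 0.973 in Wnk1 d/d (SD, n = 5). Its ranges of 3.09 to 9.59 and 1.77 to 4.38 overlapped.

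Apln, which encodes the peptide apelin, stayed under a mean of 1 FPKM in both groups and was not tested across genes. It read 0.53, 0.88, 0.79 and 0.56 FPKM in controls and 0.89, 0.66, 1.36, 1.01 and 0.75 FPKM in Wnk1 d/d. The ranges overlapped, and the exact two-sided permutation test gave p = 0.159 for a log2 difference of 0.19.

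Adm, which encodes adrenomedullin, a vasodilator peptide that supports vessel integrity, was lower in all Wnk1 d/d uteri. The controls read 12.5, 10.01, 11.3 and 15.9 FPKM, and the Wnk1 d/d libraries 5.85, 9.15, 8.23, 6.06 and 7.88 FPKM. The highest Wnk1 d/d library lay just below the lowest control. The means of 12.4 ± 2.52 (SD, n = 4) and 7.43 ± 1.43 FPKM (SD, n = 5) differed 1.67-fold, with a log2 fold change of -0.67 ± 0.15 (SE, limma, adjusted p = 0.0167). The exact two-sided permutation test gave p = 0.0079. The call held in each of the 9 fits without 1 library, where the adjusted p reached 0.0439 without Wnk1 fl/fl replicate 4, the library with the highest Adm.

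Per length, Vegfa and Adm held the same rank in both genotypes, and the means of the other ligands changed places. In controls the means ran from Vegfa through Pgf, Vegfb, Adm, Angpt2, Vegfc and Angpt1 to Apln. Between neighbors in this order, the ranges of Pgf and Vegfb overlapped, as did those of Angpt2 and Vegfc. Pgf also overlapped Adm, which was above it in Wnk1 fl/fl replicate 4 (15.9 against 11.9 FPKM). In Wnk1 d/d the order was Vegfa, Vegfb, Pgf, Adm, Vegfc, Angpt2, Apln and Angpt1. There the ranges of neighbors overlapped between Pgf and Adm, between Vegfc and Angpt2, and between Apln and Angpt1. Pgf also overlapped Vegfc. Angpt2 was above Vegfc in 2 of 4 controls and below it in all 5 Wnk1 d/d libraries.

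Some genes followed a ligand closely across the 9 libraries, which differ in genotype, so that any gene that differs between genotypes shares part of this pattern. For Angpt2, the highest Pearson correlations of log2(FPKM + 1) were with Igfbp3, an insulin-like growth factor binding protein (r = 0.993), AK079675 (r = 0.991) and Kank3 (r = 0.990). Igfbp3 averaged 784 ± 456 FPKM in controls (SD, n = 4) and 114 ± 38.2 in Wnk1 d/d (SD, n = 5). Adm was followed by Slc23a2, a vitamin C transporter (r = 0.991), Arhgap26 (r = 0.983) and Acss3 (r = 0.981), and Vegfc by Bnip3l, a mitophagy receptor (r = 0.976), Rmnd5a (r = 0.955) and Hltf (r = 0.955). Between ligands the closest pair was Angpt2 and Adm (r = 0.841), while Vegfa and Angpt2 gave r = -0.070.

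Among the receptors of these ligands, Kdr, Tek and Calcrl were lower and Ramp3 was higher. Of 12 receptors and coreceptors tested, 3 were called lower and 1 higher, where 5.18% and 5.09% of all tested genes were, and 8 were not called. The log2 fold change was below 0 for 11 of the 12 and for 7287 of all 14728 genes, although that of Nrp2 lay near 0 and changed sign in 4 of the fits that left out 1 library. The median was -0.33, against 0.0030 over all genes. The plot of fold changes by axis sets each ligand beside its receptors.

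**Figure D2:**
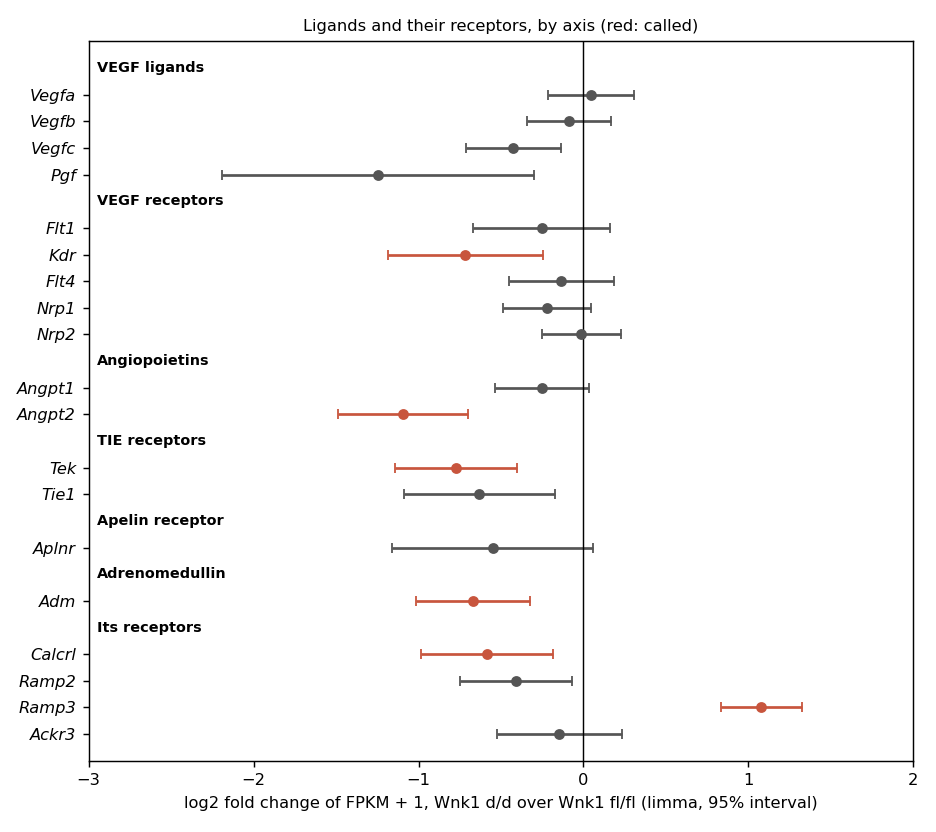
Log2 fold change of FPKM + 1 (horizontal axis, Wnk1 d/d over Wnk1 fl/fl) with its 95% limma interval for the 7 tested ligands and their 12 receptors and coreceptors, in red where called. Angpt2 (-1.09), Adm (-0.67), Kdr, Tek and Calcrl lie left of 0 and Ramp3 (1.08) is the gene called to the right.

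Among VEGF receptors, Kdr, the main signaling receptor of Vegfa, read 25.6, 26.0, 24.3 and 29.0 FPKM in controls and 9.13, 23.4, 14.4, 16.5 and 17.7 FPKM in Wnk1 d/d. The groups did not overlap, and the log2 fold change was -0.72 ± 0.21 (SE, limma, adjusted p = 0.0377). This call rested on the full set of libraries, since the adjusted p was under 0.05 in 2 of the 9 fits without 1 library and rose to 0.0949 without Wnk1 fl/fl replicate 4. It lay above 0.05 without any 1 of the controls or Wnk1 d/d replicate 3, 4 or 5, and without Wnk1 d/d replicate 1 the ratio of 0.684 fell short of the fold criterion. Flt1, the decoy-like receptor of Vegfa, Vegfb and Pgf, averaged 8.74 ± 1.05 FPKM (SD, n = 4) and 7.37 ± 2.2 (SD, n = 5), with limma's adjusted p = 0.334. Flt4, the receptor of Vegfc, and the coreceptors Nrp1 and Nrp2 gave adjusted p values of 0.510, 0.200 and 0.944 in limma. Thus Kdr was the VEGF receptor called, and a difference between Kdr and the others was not tested.

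Tek, the receptor of both angiopoietins, was lower in the same libraries in which Angpt2 was lower. It read 19.7, 21.4, 23.0 and 22.9 FPKM in controls and 8.38, 17.0, 10.9, 13.6 and 13.3 FPKM in Wnk1 d/d. Each Wnk1 d/d value lay below each control, and the log2 fold change of -0.77 ± 0.16 (SE, limma, adjusted p = 0.0128) was called in all 9 fits without 1 library at an adjusted p of at most 0.0379. Tie1, the orphan partner of TEK, averaged 53.5 ± 2.65 FPKM (SD, n = 4) and 35.5 ± 10.6 (SD, n = 5) without overlap, and missed the threshold (limma, adjusted p = 0.0532). Without Wnk1 d/d replicate 1 or 2 its adjusted p was 0.0486 and 0.0198, respectively. Aplnr, the apelin receptor, ranged from 37.6 to 57.5 FPKM in controls and from 16.0 to 42.5 in Wnk1 d/d, with limma's adjusted p = 0.163.

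The adrenomedullin receptor showed opposite values for its subunits. Calcrl, the receptor itself, averaged 9.47 ± 1.14 FPKM in controls (SD, n = 4) and 6.14 ± 1.87 in Wnk1 d/d (SD, n = 5), with a log2 fold change of -0.59 ± 0.18 (SE, limma, adjusted p = 0.0439). Its groups overlapped, since Wnk1 d/d replicate 2 read 8.86 FPKM and the lowest control 7.99. Only the fit without that Wnk1 d/d library kept the call, and the adjusted p reached 0.107 without Wnk1 fl/fl replicate 4. Ramp2, the coreceptor that directs CALCRL toward adrenomedullin, averaged 161 ± 15.5 (SD, n = 4) and 122 ± 23.5 FPKM (SD, n = 5) and was not called (limma, adjusted p = 0.0781). Ramp3, the alternative coreceptor for adrenomedullin, read 51.2, 64.9, 48.2 and 59.9 FPKM in controls and 107, 131, 114, 135 and 109 FPKM in Wnk1 d/d. All Wnk1 d/d values were above all controls, a 2.13-fold difference with a log2 fold change of 1.08 ± 0.11 (SE, limma, adjusted p = 0.00144). It was called in each of the 9 fits without 1 library, where the adjusted p was at most 0.00534. The ratio of Ramp3 to Ramp2 was 0.349 ± 0.0388 in controls (SD, n = 4) and 1.0 ± 0.187 in Wnk1 d/d (SD, n = 5), and that of Ramp3 to Calcrl was 6.04 ± 1.49 and 20.7 ± 5.46, both without overlap. Ackr3, an atypical receptor that takes up adrenomedullin, did not pass the test (limma, adjusted p = 0.545).

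**Figure D3:**
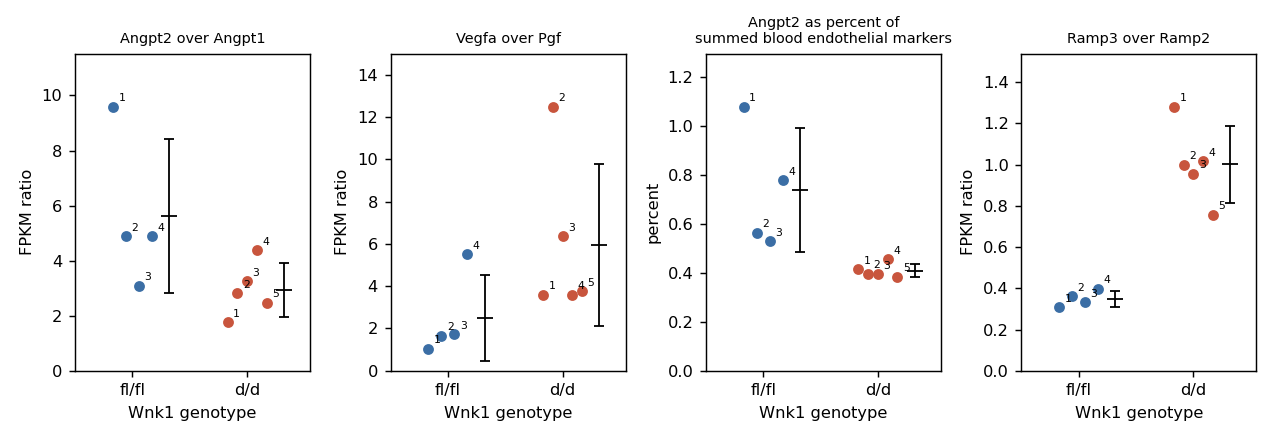
Ratios of FPKM, and Angpt2 as a percentage of the summed blood endothelial markers (vertical axes, starting at 0), in each numbered library with the mean ± SD. Ramp3 over Ramp2 is 0.308 to 0.398 in controls and 0.756 to 1.28 in Wnk1 d/d, and the Angpt2 percentage also separates the genotypes, whereas the ratios of Angpt2 to Angpt1 and Vegfa to Pgf overlap.

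Most markers of the blood endothelium, the cell type that carries most of these receptors, were lower in Wnk1 d/d. The log2 fold change was below 0 for 12 of 13 markers and for 7287 of all 14728 genes. That of Sox17 was 0.12, with overlapping groups (limma, adjusted p = 0.587). Of 13 markers tested, 8 were called lower and 0 higher, where 5.18% and 5.09% of all tested genes were, with a median log2 fold change of -0.65. Vwf (-1.08), Cdh5 (-1.01), Emcn (-0.70) and Ptprb (-0.69) were called. Without 1 library, the adjusted p of Vwf, Cdh5 and Emcn stayed under 0.05 in all 9 limma fits, the fold criterion aside. That of Ptprb lay under 0.05 in 2 of the 9 and reached 0.0798 without Wnk1 fl/fl replicate 4. No marker was at 0 in any library, and the 13 summed to 872 to 972 FPKM in controls and 457 to 776 FPKM in Wnk1 d/d without overlap. In bulk uterus, fewer endothelial cells and less RNA per cell cannot be told apart. Set against that sum, Angpt2 was 0.528 to 1.08% in controls and 0.384 to 0.454% in Wnk1 d/d, which did not overlap. Adm was 1.36 ± 0.324% (SD, n = 4) and 1.21 ± 0.231% (SD, n = 5) of the sum, and Vegfc 0.662 ± 0.0581% and 0.722 ± 0.274%, and the ranges of both overlapped. The part of the endothelial share in the lower ligand levels was not tested.

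Other cell types also differed, beside 5.09% of all tested genes called higher and 5.18% called lower. All 7 smooth muscle markers were called higher, among them Actg2 (2.03), Cnn1 (1.41), Des (1.22) and Acta2 (1.17 on the log2 scale), and they summed to 2968 to 6681 FPKM in controls and 7491 to 14104 FPKM in Wnk1 d/d. Of 7 pericyte markers, 2 were called lower, Pdgfrb (-0.84) and Abcc9 (-0.64), and 0 higher, with overlapping sums. By the adjusted p alone, 5 were lower and 1 higher, where 11.0% and 11.1% of all tested genes were. The higher one was Cspg4 (0.52, limma, adjusted p = 0.0278), whose 1.49-fold difference lay under the fold criterion. Among 6 stromal markers Pdgfra (-0.78) was called lower and Col1a1 (0.96) higher. By the adjusted p alone, 4 stromal markers were lower and 1 higher, with a median of -0.56. Of 7 epithelial markers Cldn7 (0.61) was called higher. Of 6 NK cell markers, Eomes (-0.56) was called lower. The call of Cldn7 was lost without Wnk1 fl/fl replicate 1 or 4 or Wnk1 d/d replicate 1, 3 or 4 (limma, adjusted p up to 0.104), and that of Eomes without Wnk1 fl/fl replicate 3 or 4 or any Wnk1 d/d library (adjusted p up to 0.109). None of the 4 lymphatic endothelial markers tested, 6 macrophage markers or 7 liver markers was called in limma, and the smallest adjusted p in these lists was 0.0785 for Lyve1, 0.0591 for Mrc1 and 0.0702 for Trf. Without 1 library these reached 0.0475 and 0.0218 for Lyve1 and Mrc1 (Wnk1 d/d replicate 4) and 0.0176 for Trf (Wnk1 fl/fl replicate 1). The part of these cell types in the ligand values was not tested. The plot by list sets the ligands beside these markers and the pathway genes.

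**Figure D4:**
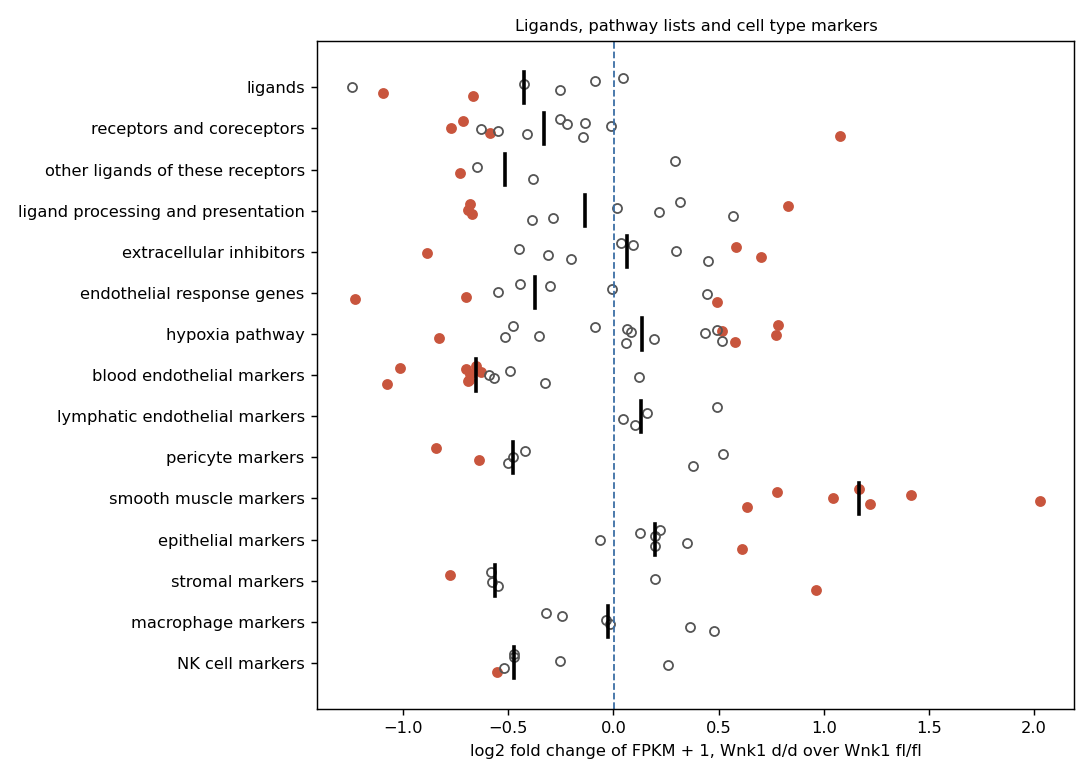
Log2 fold change of FPKM + 1 (horizontal axis) for every tested gene of the ligands, pathway lists and cell type markers, filled in red where called, with a black bar at each list's median and a dashed line at the median of all tested genes. The ligand median is -0.43 and that of the blood endothelial markers -0.65, while all 7 smooth muscle markers lie above 0.

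The wider pathway changed in both directions. Over 60 tested genes of the 6 pathway lists, receptors included, 9 were called higher and 11 lower, where 5.09% and 5.18% of all genes were. Of the 4 tested genes that encode other ligands or coreceptors of this system, Calca, the source of calcitonin gene-related peptide, which uses CALCRL, was called lower (-0.73, limma, adjusted p = 0.0261). That call was lost without Wnk1 fl/fl replicate 1, 2 or 3 or Wnk1 d/d replicate 4, with adjusted p between 0.0552 and 0.0640. Ramp1, the coreceptor for that peptide, had an adjusted p of 0.0206 in limma but a ratio of 0.764, under the fold criterion. Its adjusted p was above 0.05 without Wnk1 fl/fl replicate 1, 2 or 4, at most 0.0547.

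Genes that process or present ligands were split, with 1 called higher and 3 lower of 10. Of all tested genes, 5.09% were called higher and 5.18% lower. By the adjusted p alone, 4 of the 10 were higher and 3 lower, where 11.1% and 11.0% of all tested genes were. Adamts3, the protease that cleaves pro-VEGFC, averaged 1.52 ± 0.311 FPKM in controls (SD, n = 4) and 3.47 ± 0.470 in Wnk1 d/d (SD, n = 5), without overlap (log2 fold change 0.83, limma, adjusted p = 0.00360). Ccbe1, the cofactor that this cleavage requires, went the other way, from 5.58 ± 0.673 (SD, n = 4) to 3.13 ± 0.693 FPKM (SD, n = 5), with limma's adjusted p = 0.00836. Both calls held in each of the 9 fits without 1 library. Pcsk5, a proprotein convertase (-0.69, limma, adjusted p = 0.0201), and Svep1, a matrix protein needed for lymphatic development (-0.67, adjusted p = 0.0249), were also lower. Pcsk5 missed the threshold without Wnk1 fl/fl replicate 4 (adjusted p = 0.0529), and Svep1 without Wnk1 d/d replicate 1, 3 or 4 (adjusted p up to 0.0526).

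Of 10 extracellular inhibitors, 2 were called higher and 1 lower, where 5.09% and 5.18% of all tested genes were. Their median was 0.064. Sema3a, a neuropilin ligand that competes with VEGF, rose from 2.19 ± 0.536 (SD, n = 4) to 4.17 ± 0.745 FPKM (SD, n = 5), with limma's adjusted p = 0.0127. Adamts1, a protease that sequesters VEGF, was higher (0.58, limma, adjusted p = 0.0217), but not past the threshold without Wnk1 fl/fl replicate 2 or 4 or Wnk1 d/d replicate 5 (adjusted p up to 0.0546). Col18a1, the source of endostatin, was lower in each Wnk1 d/d library (-0.89, limma, adjusted p = 0.00961). Sema3f, which binds Nrp2, was higher without overlap at limma's adjusted p = 0.00727 but 1.39-fold, under the fold criterion.

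Of 8 tested genes that respond to these ligands in endothelium, 1 was called higher and 2 lower, where 5.09% and 5.18% of all tested genes were. By the adjusted p alone, 2 were higher and 3 lower, where 11.1% and 11.0% of all tested genes were. Cxcr4, the tip cell chemokine receptor, was lower (11.3 ± 2.30 FPKM, SD, n = 4, against 4.20 ± 0.512, SD, n = 5, with limma's adjusted p = 0.00145), as was the transcription factor Ets1 (-0.70, adjusted p = 0.00732). Dusp5, an ERK phosphatase, was higher (0.49, limma, adjusted p = 0.0166). Vegfa, Angpt2 and Adm are known to be induced by hypoxia. Of 16 tested genes of the hypoxia pathway, 4 were called higher and 1 lower, where 5.09% and 5.18% of all tested genes were. The median of the list was 0.14. Hif1a, the oxygen-regulated transcription factor subunit (0.78, limma, adjusted p = 0.00544), the glycolytic gene Ldha (0.77, adjusted p = 0.0174) and Car9, a carbonic anhydrase (0.58, adjusted p = 0.0108), were higher, and Ndrg1 was lower (-0.83, adjusted p = 0.0111). By the adjusted p alone, 6 of the 16 were higher and 4 lower, where 11.1% and 11.0% of all tested genes were. The list thus moved in both directions.

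When each library was left out in turn, Angpt2 and Adm stayed at an adjusted p under 0.05 in all 9 limma fits, Vegfc lay under it in 2 of them and Pgf in 1, and Vegfa, Vegfb and Angpt1 in 0. The plot of adjusted p by alternative shows each fit.

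**Figure D5:**
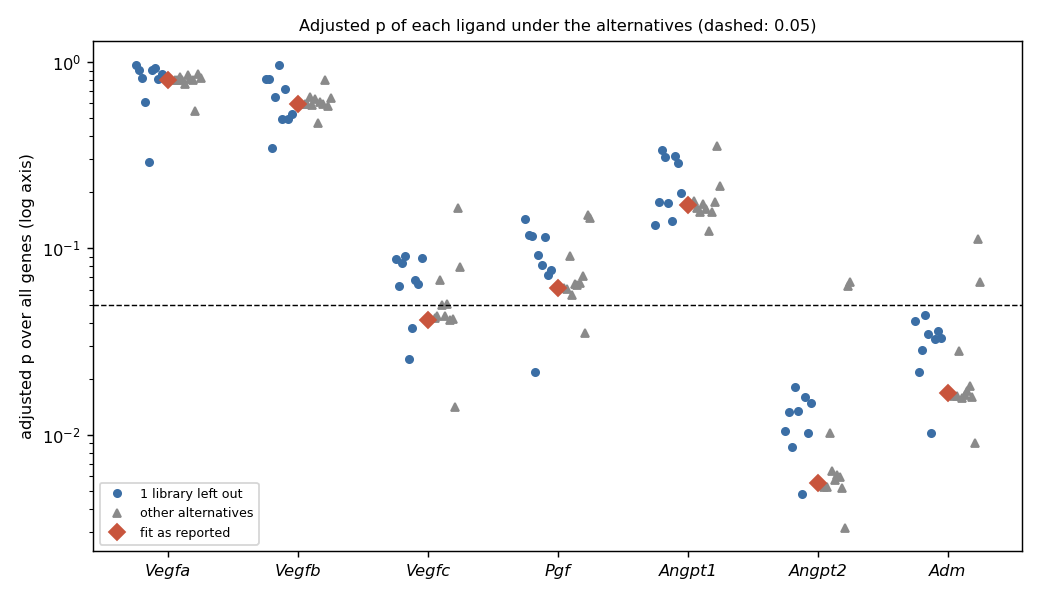
Adjusted p of each tested ligand (vertical log axis) in limma as reported (diamonds), with 1 library left out (circles) and under the other alternatives (triangles), with a dashed line at 0.05. All circles of Angpt2 and Adm lie below the line, those of Vegfc lie on both sides and 1 of 9 for Pgf lies below it.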

How the data were processed

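RNA from the uterus of each mouse was made into a TruSeq RNA library and sequenced as paired ends, per the study's methods. The authors aligned reads to mm10 with TopHat2 (2.0.4, per the submitters' processing notes, which also name Cufflinks 2.0.2) and deposited gene-level FPKM values for each library. The annotation used for counting and the strand setting are not given in the sources used here. FPKM holds no counts, so the depth is unknown and no counting interval is given. The relative worth of 1 fragment was estimated from ratios between libraries of 422 entries detected in only a few libraries. It differed at most 1.34-fold between libraries. The estimate takes those entries to hold equally few fragments in each library, which was not tested.

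Values were tested as log2(FPKM + 1) in limma 3.58.1 (R 4.3.3), with a mean-variance trend and Benjamini-Hochberg adjustment over 14728 entries whose mean exceeded 1 FPKM in at least 1 genotype. Genes were called at an adjusted p below 0.05 where, in addition, the mean FPKM differed at least 1.5-fold. Single genes also had an exact two-sided permutation test over 126 splits (NumPy 2.4.6), whose smallest p is 0.0079. The fit was checked on simulated data. Groups came from the labels. The Cuffdiff test of the study's methods needs aligned reads and was not run. All ligands and receptors are named, and for other lists the called genes and that with the smallest adjusted p, at most 4 by size of change. For ligands with an adjusted p under 0.05, the 3 genes most correlated with each are named. The members, gene lists and naming rule were chosen with earlier results of these data known. The alternatives were other added constants, filters, scalings, limma settings, fold criteria, a replicate block, the exact test, and leaving out each library.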

Additional observations from a re-analysis of the deposited data

Results flagged for a closer look

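Among 162 groups of 4 or 5 libraries, the highest or lowest library stood far from the rest of its group by Dixon's criterion in 11 (6.79%), where chance gives about 5%, or 1 in 20. Of the ligand measures, the ratio of Vegfa to Pgf was 5.52 in Wnk1 fl/fl replicate 4 against 1.05 to 1.74 in the other controls, the summed ligands were 96.5 FPKM in Wnk1 d/d replicate 1 against 118 to 125 FPKM, and Vegfc was 1.21% of the summed blood endothelial markers in Wnk1 d/d replicate 1 against 0.552 to 0.663%. Ackr3 read 25.3 FPKM in Wnk1 d/d replicate 3 against 14.5 to 15.7 FPKM. Wnk1 fl/fl replicate 4 was high in Svep1, at 6.80 FPKM against 3.82 to 4.13 FPKM, and in Ptprb, at 12.1 FPKM against 8.62 to 8.95 FPKM. Ndrg1 read 156 FPKM in Wnk1 fl/fl replicate 1 against 107 to 112 FPKM. The extracellular inhibitors summed to 420.3 FPKM in Wnk1 fl/fl replicate 2 against 389 to 394 FPKM. In Wnk1 d/d replicate 4 the lymphatic markers summed to 17.2 FPKM against 27.7 to 31.6 FPKM, and the macrophage markers to 160.0 FPKM against 241 to 261 FPKM. The liver markers summed to 195 FPKM in Wnk1 fl/fl replicate 4 against 31.1 to 41.4 FPKM in the other controls.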

How the results depend on the processing

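Angpt2 and Adm kept their direction in all 20 alternatives and an adjusted p under 0.05 in 18. The exceptions were the replicate block and the exact permutation test adjusted over all genes, in which the log2 fold changes were -1.10 and -1.09 for Angpt2 and -0.69 and -0.67 for Adm. The exact test called 0 genes, ligands or receptors, since its smallest adjusted p is 0.0657, while 5309 genes, 3 ligands and 6 receptors had an unadjusted exact permutation p under 0.05 and limma called 1513 genes. Vegfc lay above the threshold in 11 alternatives, at -0.43 without a filter and in the exact test, -0.39 under quantile normalization and -0.39 with the block, and in 7 of the 9 fits with 1 library left out. Over all 9 of those fits its log2 fold change ran from -0.50, which passed, to -0.34. Pgf passed the threshold with library weights (-1.18) and without Wnk1 fl/fl replicate 4, over a range of -1.65 to -0.98 with 1 library left out. Vegfa changed sign under quantile normalization (-0.037) and without Wnk1 d/d replicate 3 (-0.018), and ran from -0.018 to 0.14 with 1 library left out. Nrp2 changed sign without Wnk1 fl/fl replicate 1 (0.058) or 4 (0.0035) and Wnk1 d/d replicate 1 (0.023) or 3 (0.021), and ran from -0.083 to 0.058 with 1 library left out. The causes were not tested.

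Leaving out 1 library gave 2 to 3 called ligands, 2 to 5 called receptors and 1019 to 1870 called genes. A fold criterion of 2 left 1 ligand, 1 receptor and 550 genes, no filter left 2 receptors, and no fold criterion gave 3249 genes. With the replicate number as a block, 0 ligands, 1 receptor and 218 genes were called. The log2 fold changes of that fit do not draw on Wnk1 d/d replicate 5, which has no partner. Its FPKM still entered the filter and the fold criterion. The replicate numbers share no stated origin, and the deviations of same-numbered libraries correlated at -0.087, -0.0029, 0.022 and -0.27. Those of differently numbered libraries correlated at -0.14 to 0.31. Such values cannot exclude that some mice were paired, and the numbers were not used as pairs in the main fit. The median log2 fold change of all tested genes was 0.0098 under median scaling and -0.0076 under quantile normalization. With 4 and 5 mice and depth unknown, smaller differences in low ligands such as Angpt1 and Apln were not detectable.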
